A study of Drosophila melanogaster with 3 samples.

Results

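The regions described here are the intronic binding summits of CG12391-eGFP that lay at a middle distance from gene starts in Drosophila melanogaster embryos. They were chosen from the authors' optimal IDR list, the peaks that passed a test of reproducibility between replicates. A region was kept when its summit, the position of highest signal in the peak, was over 500 and at most 2000 bp from the nearest transcription start site (TSS) of any gene, inside a transcript and in no exon of any transcript. The rule found 1094 of 8522 peaks on the chromosome arms, or 12.8%. Gene models came from Ensembl release 115 on the dm6 build, without transposable elements and pseudogenes. Of the other peaks, 4206 had a summit within 500 bp of a TSS (called promoter peaks below), 1726 were intronic and over 2000 bp from a TSS, 1314 were intergenic and 182 were exonic away from a TSS.

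The study had 1 group of 3 biological replicates. Each was a whole-embryo sample, pooled over both sexes and aged 0 to 24 h, from a fly line with a stable transgene for CG12391 carrying GFP at its C terminus. Sonicated chromatin of 200 to 800 bp was immunoprecipitated with an antibody to GFP, and peaks of every replicate were called against the same control. The labels do not give the promoter that drives the transgene, and whole embryos hold many cell types, so strong binding in few cells and weak binding in many cannot be told apart.

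CG12391 is a zinc finger protein of the fly. Introns of Drosophila genes, first introns above all, often hold enhancers, and they also hold the start sites of shorter transcripts of the same gene. Fly promoters of broadly active genes carry short shared elements, among them the DNA replication-related element TATCGATA, bound by DREF and in part by BEAF-32, and Motif 1, bound by M1BP.

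The sequences at 7 of the 8 strongest regions are printed first because these regions ranked within the first 70 peaks of every replicate. Each line gives 101 bases around the summit from the Release 6 reference genome, and capitals mark unbroken runs of 6 or more A or T.
ush chr2L:481016-481116 plus strand: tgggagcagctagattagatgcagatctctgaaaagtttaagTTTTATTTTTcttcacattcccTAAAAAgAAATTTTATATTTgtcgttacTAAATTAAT
CG11050 chr2L:6612658-6612758 plus strand: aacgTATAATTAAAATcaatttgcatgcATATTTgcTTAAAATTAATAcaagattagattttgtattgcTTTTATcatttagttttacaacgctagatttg
Lk6 chr3R:11761007-11761107 plus strand: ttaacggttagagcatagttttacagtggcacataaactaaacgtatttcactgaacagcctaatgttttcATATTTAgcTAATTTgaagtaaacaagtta
Trl chr3L:14759469-14759569 plus strand: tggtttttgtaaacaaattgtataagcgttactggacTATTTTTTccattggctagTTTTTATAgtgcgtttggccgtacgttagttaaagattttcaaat
CG32772 chrX:4910324-4910424 plus strand: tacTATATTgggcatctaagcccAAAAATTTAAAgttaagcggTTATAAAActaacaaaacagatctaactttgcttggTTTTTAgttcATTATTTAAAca
CG9663 chr2L:3302133-3302233 plus strand: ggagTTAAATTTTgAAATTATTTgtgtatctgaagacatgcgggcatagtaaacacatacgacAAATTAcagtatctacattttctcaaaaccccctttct
Hyls1 chr2L:16351202-16351302 plus strand: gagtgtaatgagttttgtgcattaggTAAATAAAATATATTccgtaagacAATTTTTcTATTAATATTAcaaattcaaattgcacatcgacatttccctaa
The longest run of A and T in these 7 windows was between 7 bases at Lk6 and 15 bases at Hyls1, and A+T made up 66.3% at CG9663 to 77.2% at CG11050. None of the 7 held TATCGATA or the Motif 1 letters GGTCACACT on either strand.

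A further sequence is printed because it is the strongest region whose 101 bp window held TATCGATA. Capitals mark that element and the Motif 7 letters CATCNCTA, which read TAGTGATG on the strand shown.
Stt3A chrX:21053267-21053367 plus strand: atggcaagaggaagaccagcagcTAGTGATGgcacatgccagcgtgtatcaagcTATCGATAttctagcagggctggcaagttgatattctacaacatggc
Stt3A, a catalytic subunit of the oligosaccharyltransferase, held its summit in a first intron of 384 bp, 620 bp downstream of its own TSS. Its peak had signal 764 and overlapped a top peak of all 3 replicates.

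The strongest peak of the whole IDR list was a middle-distance intronic region. It lay in the 13185 bp first intron of ush, which encodes a zinc finger partner of GATA factors, and the nearest TSS, 1378 bp away, belonged to cbt, a zinc finger transcription factor gene. The authors' signal value of the ush peak was 9277, and it ranked 2, 1 and 2 in replicates 1, 2 and 3. CG11050 followed at signal 9094 with ranks 3, 2 and 1, its summit in a second intron of 140 bp, 1021 bp downstream of the TSS of that gene. Lk6, a kinase that phosphorylates the translation initiation factor eIF4E, held signal 6521 in its first intron and ranked 9, 12 and 10. Trl, the gene of the GA-binding GAGA factor, held signal 5966 in its second intron and ranked 28, 6 and 30. These 4 regions were the members among the 20 strongest IDR peaks, against 16 other peaks. Further down the share was near the 12.8% of the whole list, at 12% of the 100 strongest peaks, 14.6% of the 500 strongest and 13.9% of the 1000 strongest. The signal is the authors' value on a scale the sources do not give, so it serves here to rank peaks within 1 list.

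The next 16 regions by signal ran from CG32772 at 5299 to Adf1 at 2840. HmgD and HmgZ, which encode HMG-box chromosomal proteins, shared a region of signal 4975 in overlapping first introns. Alh, a chromatin regulator gene, held signal 3407 in intron 5, 601 bp from an internal TSS of Alh. A summit in simj, which encodes the p66 subunit of the NuRD complex, had signal 3245, the transcription factor NFAT held 3077, and Adf1, itself a DNA-binding transcription factor gene, held 2840. The centriole gene Hyls1 and chif, which encodes the regulatory subunit of the Cdc7 kinase, shared a region of 4187. The cGMP-dependent kinase gene for held 3316, the mRNA decay factor gene Tis11 held 2895, and LPCAT, a lysophospholipid acyltransferase gene, held 2882. The remaining strong regions were in CG9663 at 4452, CG31635 at 3449, CG9837 at 3348, CG4496 at 3338, CG1677 together with Dok at 3008, and CG3726 at 2987. All of the 20 strongest overlapped a top peak of each replicate, and their lowest ranks in replicates 1, 2 and 3 were 355, 238 and 276. Of the 20, 17 lay in a first intron and 18 were nearest to a TSS of their own host gene. Their summits in the replicates lay at a median of 12, 2 and 6.5 bp from the IDR summit, and at most 87 bp away.

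**Figure D1:**
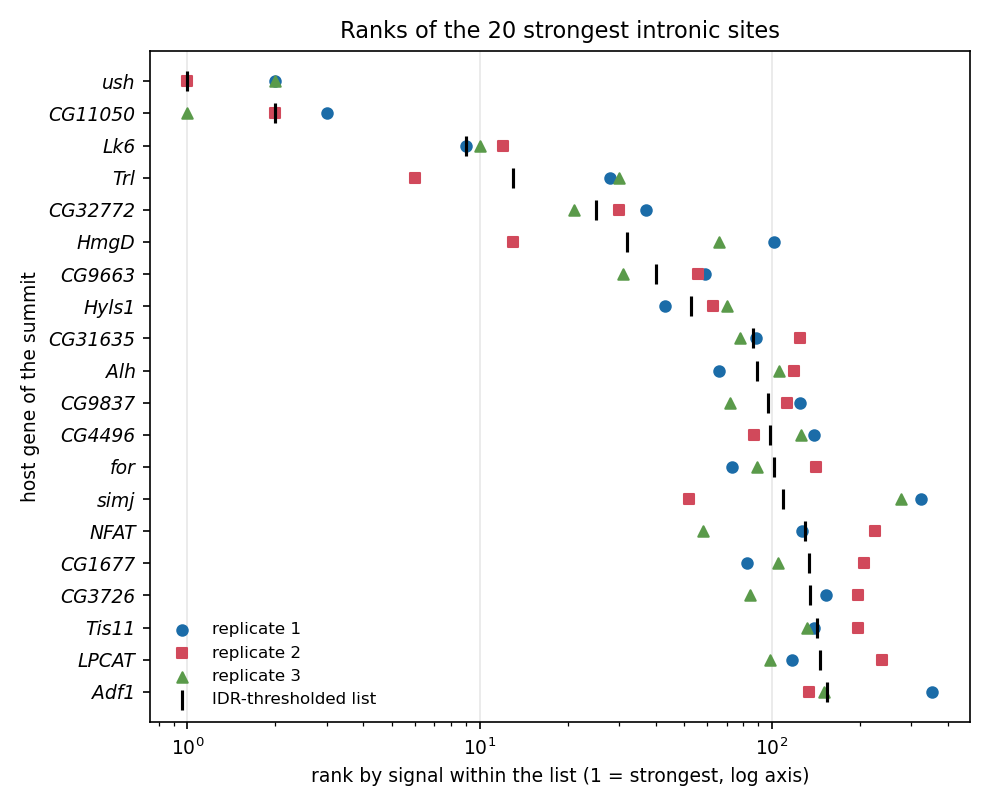
Rank of the 20 strongest regions within the peak list of each of the 3 replicates, on a log axis, 1 being the strongest peak; each row is a region named by its host gene, each point a replicate and each black tick the rank in the IDR list. Ranks stay within the first 355 of about 30000 peaks in every replicate, and ush and CG11050 are among the first 3 in all of them.

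The weakest end looked different. The 5 regions of lowest signal, between 227.2 and 228.2, lay in sgg (the fly GSK3 kinase), CG2991, RapGAP1, cyr and ths (an FGF ligand). CG2991, cyr and ths had no overlapping peak at all in replicate 1. Each of the 5 overlapped a top peak of 1 or 2 replicates, not of all 3. On either side of the distance limits the values were mixed. Just below 500 bp lay intronic summits in CG12912 (499 bp, signal 1056), Mob2 (499 bp, 469.9) and qtc (497 bp, 592.2). Just above it lay Hers (501 bp, 368.9), ATP8A (503 bp, 521.2) and CG14434 (504 bp, 2153). At the far limit hiw (1999 bp, 936.2), Atg1 (1997 bp, 728.8) and Agpat2 (1997 bp, 425.7) were inside, and lncRNA:CR44320 (2004 bp, 448.2), Sulf1 (2004 bp, 369.6) and Mcr (2006 bp, 692.8) were outside.

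As a class the regions had a median signal of 457, with quartiles at 311.2 and 773.3, against 444.7 for all other IDR peaks. Promoter peaks had a median of 491.2, intronic peaks over 2000 bp away 396.1 and intergenic peaks 394.3. The middle-distance introns thus stood between promoters and the more distant classes. In the replicate lists the peak at each region sat at a median percentile of 85.8, 87.2 and 86.9, against 86.4, 86.5 and 86.4 for the other IDR peaks. The difference of 0.185 percentile points changed sign between replicates and was within their spread (SD 0.744, n = 3, exact sign-flip permutation test, two-sided, p = 0.75). Against promoter peaks the regions were lower by 1.71 points in the mean (difference -1.71, SD 0.892), and they were higher than intronic peaks over 2000 bp away by 2.65 points (SD 0.631) and than intergenic peaks by 2.97 points (SD 0.717). Each of these 3 differences had the same sign in 3 of 3 replicates, with p = 0.25 by the same exact test. With 3 replicates 0.25 is the smallest p that this test can give, so no comparison here could pass 0.05. The test gives 0.25 whenever all 3 differences share a sign, whatever their size, so that p reports agreement in sign only. The 3 samples share a control.

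Replicate support was close to that of the whole list. Of the regions, 755 of 1094 (69.0%) overlapped a peak among the 8522 strongest of all 3 replicates, beside 69.2% of all IDR peaks. A further 226 did so in 2 replicates, 108 in 1, and 5 in no replicate (toc, slif, Tusp, fus and Socs36E). The share in single replicates was 78.1%, 91.9% and 88.3%, against 82.7%, 89.0% and 87.8% of the other IDR peaks. Replicate 1 was the lowest for both. The mean difference of -0.448 percentage points was smaller than its SD of 3.86 (n = 3, exact permutation test, p = 1). The IDR list was itself made from these replicate lists, so its support in them is a description and not independent evidence.

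Support followed signal. The IDR list was cut by signal into 5 equal groups. In the weakest group 14.6% of 219 regions overlapped top peaks of all 3 replicates. The next groups gave 48.5% of 206, 83.1% of 213 and 96.4% of 225, and the strongest reached 99.1% of 231. Applying the same positional rule to the 8522 strongest peaks of each replicate gave 1051, 1162 and 1133 regions (1115 ± 57.6, SD, n = 3), near the 1094 of the IDR list. Of the IDR regions, 76.7%, 90.2% and 86.6% overlapped one of these. Across 1061 regions found in all 3 lists, the Spearman correlation of signal between replicates was 0.723 for 1 and 2, 0.854 for 1 and 3 and 0.765 for 2 and 3. The other peaks gave 0.633, 0.829 and 0.732 over 7202 peaks. These are correlations across peaks called against a shared control, and peaks are not independent replicates.

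The regions were denser than summits in more distant intronic sequence. Introns hold 11.4 Mb that satisfy the same positional rule, 8.50% of the arms. The regions occurred at 96.2 per Mb of it, against 41.6 per Mb in introns over 2000 bp from a TSS, and 63.7 per Mb for all IDR summits over the arms. In the replicates the density was 92.4, 102.2 and 99.6 per Mb at 500 to 2000 bp, against 38.3, 43.0 and 41.1 per Mb beyond. The difference of 57.3 per Mb (SD 2.77) held in 3 of 3 replicates (exact permutation test, p = 0.25). Density also fell with distance inside the range. It averaged 128 ± 8.36 per Mb at 500 to 750 bp, 95.0 ± 7.28 at 1000 to 1250 bp and 77.8 ± 5.61 at 1750 to 2000 bp (SD, n = 3). The first of these bins exceeded the last by 50.5 per Mb (SD 6.95, exact permutation test, p = 0.25). No gap separated the range from its surroundings, since intronic bases within 250 bp of a TSS carried 271 ± 29.1 summits per Mb and those at 2000 to 3000 bp carried 63.2 ± 3.08.

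**Figure D2:**
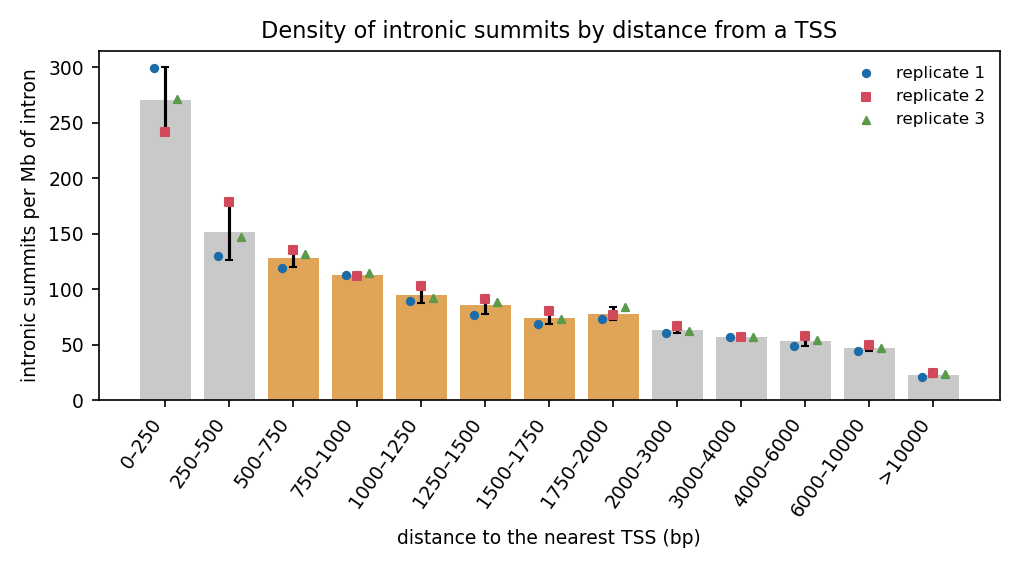
Intronic summits per Mb of intronic sequence by distance from the nearest TSS in bp; points are the 3 replicates (each list's 8522 strongest peaks), bars are their mean and error bars the SD, with the 500 to 2000 bp bins in orange. The mean is 271 per Mb next to the TSS, 128 at 500 to 750 bp and 77.8 at 1750 to 2000 bp, with no gap at either limit of the range.

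The arms differed. Regions per Mb of eligible sequence were 107.5 on X, 100.9 on 2R, 100.2 on 3L, 94.3 on 3R and 81.6 on 2L. Chromosome 4 held 3 regions, or 24.1 per Mb, and only 22 IDR peaks of any class. Regions made up 13.6% of the IDR peaks there, 14.7% on X and 10.7% on 2L, beside 12.8% over all arms. The 235 regions on X also had the highest median signal of the large arms, 493.8, and 75.3% of them overlapped top peaks of all 3 replicates, against 63.0% of the 230 on 3L, the lowest of the large arms. No test over replicates was made of these arm values.

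First introns held most of the regions. The summit was in a first intron of at least 1 transcript in 893 of 1094 (81.6%), in intron 2 in 137, in intron 3 in 32 and in a later one in 32. The replicates' own regions gave 83.3%, 81.8% and 82.3% in first introns, against 64.6% of all bases that satisfy the rule. The difference of 17.9 percentage points (SD 0.767) had one sign in 3 of 3 replicates and was many times its SD (exact permutation test, p = 0.25). The count depends on which transcript is read. In 605 regions (55.3%) the intron was the first one in every transcript that held the summit, and in 716 (65.4%) it was the first of the longest transcript. By that longest-transcript reading 50.4% of all bases that satisfy the rule lie in a first intron, so the 64.6% does not apply to it. No background is given here for the 55.3%, nor for the more distant introns in the next sentence. Intronic peaks over 2000 bp away were in a first intron in 59.3%. Regions in first introns had a median signal of 464.3 and those in later introns 427.4.

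**Figure D3:**
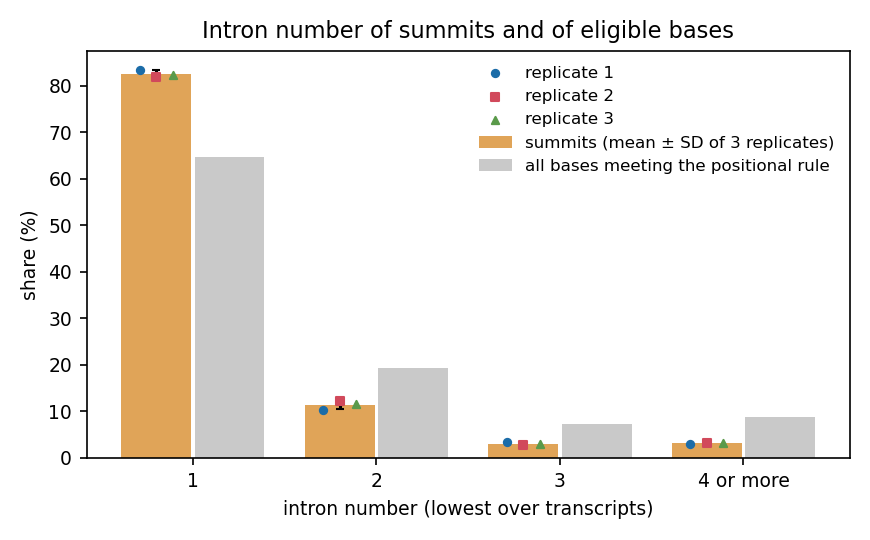
Share of summits by the lowest number of the intron that holds them, in percent (orange bars: mean of 3 replicates, error bars SD, points the replicates), beside the share of all bases that meet the positional rule (grey). First introns hold 82.5% of the summits, against 64.6% of the bases.

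Host introns ranged from 99 to 126467 bp, with a median of 5216.5 bp, and 343 (31.4%) were over 10000 bp. Signal had no visible relation to their length (Spearman 0.0055 over 1094 regions, a description). The nearest TSS belonged to the host gene in most cases. In 637 regions (58.2%) the summit lay downstream of an own TSS and in 269 (24.6%) it lay upstream of an own, internal TSS. In the other 188 (17.2%) the nearest TSS belonged to another gene. That TSS itself had an IDR summit within 500 bp for 422 regions (38.6%). In the replicates this share was 43.6%, 39.4% and 41.6%, against 21.0% for all eligible bases, a difference of 20.6 percentage points (SD 2.08, 3 of 3 replicates, exact permutation test, p = 0.25). Replicate regions were scored against IDR summits. A replicate region whose own peak had its IDR summit within 500 bp of the TSS thus counted as bound, which can raise these 3 shares. Among the 1094 regions the share was 49.0% where the summit lay downstream of an own TSS, 26.0% where it lay upstream of one and 21.3% where the TSS was of another gene. Regions beside a bound TSS had a median signal of 497.6, against 442.8 beside an unbound one, and 74.2% of them, against 65.8%, had support in all 3 replicates. The next IDR summit of any class was at a median of 1514 bp, with 355 (32.4%) of the regions within 1000 bp of one. The 1094 summits fell in 1080 distinct peak intervals, so a few shared an interval, as 2 of those in NFAT did.

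The regions had 841 host genes, 809 of them protein coding. These 809 were 8.98% of the 9009 protein-coding genes with an eligible base. Most hosts had 1 region (613), 158 had 2 and 43 had 3, and 27 had at least 4. Hosts were long, with a median of 14150 bp, against 3507 bp for protein-coding genes with an eligible base. An own TSS was bound in 532 of the 809 protein-coding hosts (65.8%), against 3645 of all 9009 (40.5%). A longer gene holds more eligible sequence and often more start sites, and its part in these shares was not tested.

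The gene with the most regions was CG1677 on X, with 9, all of them also inside lncRNA:CR44357. They lay in a 73902 bp intron that spans several other genes. Their nearest start sites were those of CBP for 3 regions, of brk for 2, of unc-119 for 2, and of Dok and CG42780 for 1 each, and brk encodes a repressor of Dpp target genes. Signal ran from 343.7 to 3008 over the 9, and each overlapped a top peak of all 3 replicates. Tlk, the Tousled-like kinase gene, held 6 regions between 427.3 and 1343, each nearest to one of its own start sites. CG32264 and siz, an Arf exchange factor gene, also held 6. The siz regions ran from 258.1 to 739.6, and 3 of the 6 had support in 1 replicate only, at 334.3, 267.4 and 262.9. In CG32264 5 of the 6 had support in all 3. NFAT held 5 up to 3077, CG42258 held 5 up to 1772, and Svil, the supervillin gene, held 5 up to 818.1. In shn, a zinc finger gene of the Dpp pathway, 5 regions ran up to 2070 in its first and second introns. The ETS factor gene pnt held 5 in the narrow span from 333.5 to 832.8, and in both genes all 5 had support in 3 replicates.

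The EGFR pathway relays a secreted signal through a receptor tyrosine kinase, Raf and MAP kinase to nuclear factors. Of its 18 listed genes with an eligible base 12 hosted a region, 21 regions in all, at 339.7 per Mb of their eligible sequence. The corresponding values over all genes were 8.98% and 96.2 per Mb. The receptor Egfr held 1 region at 311.7. The ligand-processing genes S (1615), ru (821.8) and rho (383.6), the adaptor drk (1558), the kinases Raf (872.3) and Dsor1 (353.7), the nuclear factors pnt (832.8) and aop (450.8), the inhibitors sty (653.4) and aos (426.5) and the vein gene px (1231) were the others, with the signal of their strongest region in brackets. The region in Egfr lacked support in at least 1 replicate. Support in all 3 replicates was found for 1 of 2 regions in px, 1 of 2 in ru and 1 of 3 in aop. Some regions of the list had a second host gene, those of ru and rho in Ptp61F and that of aos in CG33158. The list's genes were long, with a median length of 19540.5 bp, against the 3507 bp given above. This list, like the others below, was chosen with earlier results of these data known, so its share is a description. It also counts px, with 2 of the 21 regions, which is named here as a vein gene and not as a part of the relay.

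In the Dpp and BMP pathway 4 of 11 genes were hosts, with 10 regions at 207.8 per Mb and a median gene length of 16402 bp. The hosts were the nuclear factors shn at 2070 and Mad at 2011, and the receptors tkv at 1309 and put at 654.7. The Wingless list had 4 of 17 hosts, led by the receptor gene fz at 658.5, the kinase gene sgg at 514.1 and the co-receptor gene arr at 384.8. The Notch list had 2 of 15, the ligase gene neur at 1253 and the co-activator gene mam at 438.4, and the Hippo list had 2 of 12, ex at 736.6 and the kinase gene wts at 365.5. Their densities of 109.1 regions per Mb for Wingless, 55.8 for Notch and 97.9 for Hippo stand beside 96.2 for all genes. Their host shares were 23.5%, 13.3% and 16.7%, beside 8.98% of all genes. Median gene lengths in these lists were 12470, 19124 and 10636 bp, against 3507 bp for protein-coding genes with an eligible base. Ecdysone genes were hosts in 5 of 12 cases, among them the receptors Hr4 at 887.3 and EcR at 877.3 and the early gene br at 668.3. At 88.6 regions per Mb that list was near the 96.2 per Mb of all genes, and its median gene length was 55678.5 bp. The part of gene length in these host shares was not tested.

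For genes of chromatin and DNA-binding proteins the host shares again stand beside 8.98% of all genes and 96.2 regions per Mb. In the list of GA-binding and pioneer factors 5 of 6 genes were hosts with 13 regions (475.3 per Mb), Trl and Adf1 as above, lola at 834.9, psq at 667.2 and grh at 502.4. GATA factors and their partners had 3 of 6, with ush far above GATAd at 418.6 and grn at 313.6. The trithorax and remodeller list had 5 of 18, kis at 536.4, brm at 363.1 and osa at 286.4 the strongest of them. The Polycomb list had 1 of 19 (5.26%), ph-p at 1538, at 84.03 regions per Mb. Insulator proteins had 1 of 12 (8.33%), mod(mdg4) at 255.6, and both shares were near or below that of all genes. The insulator list held 180.6 regions per Mb, but from 1 region in 0.00554 Mb of eligible sequence. That mod(mdg4) region lacked support in at least 1 replicate. Hox genes had 2 of 8, Abd-B at 998.5 and Ubx at 276.7, and their 61.9 regions per Mb were below the value of all genes. Among neural genes 4 of 12 were hosts, led by the RNA-binding protein genes elav at 551.7, fne at 471.5 and Rbp9 at 364.2. The region in Rbp9 lacked support in at least 1 replicate. The neural list held 122.4 regions per Mb, the GATA list 199.4 and the trithorax and remodeller list 280.0. Median gene lengths were 17181, 16826 and 10076.5 bp in these lists and 27405 bp in the GA-binding list. Protein-coding genes with an eligible base had a median of 3507 bp, and the part of length in the host shares was not tested.

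The list of cytoskeleton regulators had 6 hosts of 16 genes (37.5%) with 15 regions, led by Moe (moesin) at 1748, tsr (cofilin) at 1240 and the spectraplakin gene shot at 646.0. It held 284.9 regions per Mb, with a median gene length of 11153.5 bp. The host cpo, with 1 of the 15 regions, encodes an RNA-binding protein and is no cytoskeleton regulator. The region in cpo also lacked support in at least 1 replicate. In the list of casein and translation kinases 3 of 10 were hosts (214.3 regions per Mb), Lk6, dco at 1045 and S6k at 323.2. The region in S6k lacked support in at least 1 replicate, and the median gene length of this list was 6784.5 bp. No region lay in the 13 segmentation genes, the 16 heart and muscle genes, the 13 cytoplasmic ribosomal protein genes or the 29 chemosensory receptor genes with an eligible base. The ribosomal and chemosensory genes are short, with median lengths of 1429 and 1611 bp, and offered 0.00298 and 0.0100 Mb of eligible sequence. The segmentation genes offered 0.0121 Mb and the heart and muscle genes 0.0369 Mb. With 8.98% of all genes hosting a region, counts of 0 in lists this small are not a result about them.

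The core promoter elements named above were rare in these introns. TATCGATA was within 50 bp of the summit in 2 of 1094 regions, or 0.183% (exact 95% binomial interval 0.0221% to 0.659%, counting error only). It was in 192 of 4206 promoter peaks, or 4.56% (3.95% to 5.24%), in 0.232% of intronic peaks over 2000 bp away and in 0.204% of 112713 windows of the same length tiled over all eligible bases. In the replicates the shares were 0.190%, 0.0861% and 0.265%, against 5.23%, 4.19% and 5.17% of promoter peaks, which do not overlap them. The difference of -4.68 percentage points (SD 0.505) held in 3 of 3 replicates (exact permutation test, p = 0.25), and against intronic peaks further away it was -0.0162 (SD 0.115, p = 1). Against all other peaks, at 2.93 ± 0.424% (SD, n = 3), the difference was -2.75, with p = 0.25 by the exact permutation test and 0.364 after Benjamini-Hochberg adjustment over 16 strings. GGTCACACT was in 1 region, in fra, the netrin receptor gene, at signal 278.7, or 0.0914%, against 2.19% of promoter peaks and 0.0488% of tiled windows. CATCNCTA was in 3 regions (0.274%), against 2.62% and 0.503%. The shorter core CGATA was in 109 regions (9.96%), against 23.0% of promoter peaks, 9.97% of intronic peaks over 2000 bp away and 11.2% of tiled windows. CGATA is contained in TATCGATA, and all were searched on both strands. A match is a description of the letters, and a window without one says nothing of any factor.

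**Figure D4:**
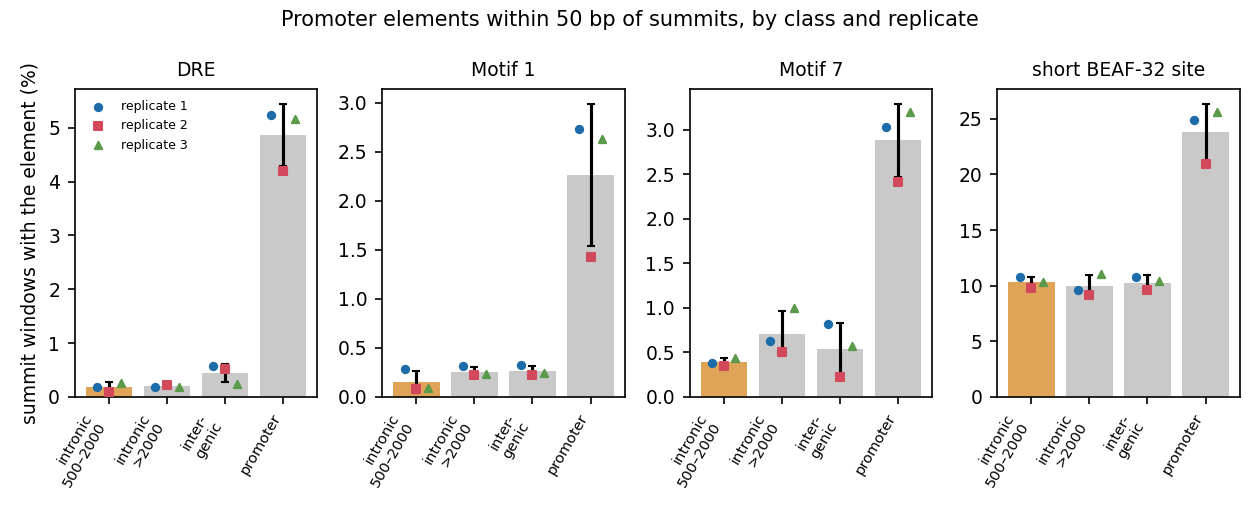
Share of 101 bp summit windows with the DRE (TATCGATA), Motif 1 (GGTCACACT), Motif 7 (CATCNCTA) and the short BEAF-32 core (CGATA), in percent and each on its own axis, for the middle-distance intronic regions (orange) and the more distant intronic, intergenic and promoter peaks (grey); bars are means of the 3 replicates, error bars the SD and points the replicates. Motif 1 and DRE means are 0.153% and 0.180% in the regions, against 2.27% and 4.86% in promoter peaks.

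Other fixed letter strings were compared with the tiled windows. TAATTA, a homeodomain core, was in 12.7% of the regions, against 8.23% of eligible windows. It was also in 11.2% of intronic peaks over 2000 bp away, 12.9% of intergenic and 11.7% of promoter peaks. GAGAG, the GAGA factor core, was in 9.05%, against 11.1%, and CACACACA in 1.19%, against 2.54%. GCCAT was in 12.1%, against 18.4%. Intronic peaks over 2000 bp away had GAGAG in 8.63% and GCCAT in 10.6%, also below the shares in eligible windows. The windows of the regions were richer in A and T than eligible sequence, 69.4% against 61.3%, and the part of that difference in these shares was not tested. GATAAG, the GATA factor core, was in 6.03%, against 5.54%.

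Summits sat on local peaks of A+T. The mean A+T content within 50 bp of the summit was 69.4%, against 57.4% in windows centred 500 bp to either side and 61.3% over all eligible bases. In 20 bp bins it reached 69.9% at the summit and was 57.1% at 180 to 200 bp upstream on the reference strand. Single regions ran from 42.6% to 87.1%, with 73 over 80% and 22 under 50%. In the replicates the excess over the flanks was 8.87, 12.3 and 9.91 percentage points (10.4 ± 1.75, SD), against 9.36, 13.7 and 10.4 for the other peaks. The regions had a slightly smaller excess, by -0.823 points (SD 0.540), in 3 of 3 replicates (exact permutation test, p = 0.25). The intronic class over 2000 bp away gave a difference of -0.832 (SD 0.287) and against intergenic peaks -1.45 (SD 0.249), with the same p.

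**Figure D5:**
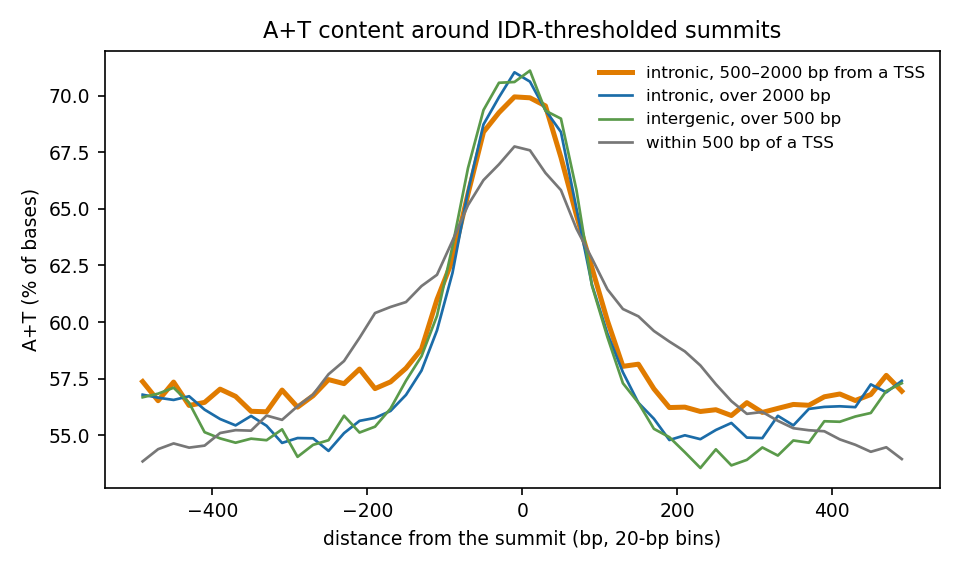
Mean A+T content in percent in 20 bp bins from 500 bp before to 500 bp after the summit, on the reference strand, for the middle-distance intronic regions and the promoter, more distant intronic and intergenic peaks. The regions rise to 69.9% at the summit, against 67.8% for promoter peaks.

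A+T content went with signal. From the weakest to the strongest of the 5 signal groups the regions averaged 67.2%, 67.2%, 69.6%, 70.6% and 72.1% A+T. The other peaks ran from 65.4% in the weakest group to 72.3% in the strongest. Over the 1094 regions the Spearman correlation of signal with A+T was 0.244, and with distance from the TSS it was -0.0751, both as descriptions across peaks. Median signal was 471.1 at 500 to 1000 bp, 458.3 at 1000 to 1500 bp and 427.3 at 1500 to 2000 bp.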

How the data were processed

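ChIP-seq peaks were analysed from 3 replicate lists, 1 list called on the pooled replicates and the IDR list. Per the labels and the deposited file lists, the authors called each list against a shared control on dm6; aligner, caller and IDR setting are not given in the sources used here. Column 7 holds the authors' signal value, deposited without a stated scale and ranked within a list only. The −log10 q values deposited by the authors are constant in the IDR list and were not used. Read depth is unknown, so it sets no interval here. The replicate lists held 29978, 30000 and 30000 peaks on the arms, after 22 mitochondrial peaks of replicate 1 were left out.

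Summits were placed on Ensembl release 115 gene models with Python 3.11.15, NumPy 2.4.6 and pandas 2.3.3. The background was a tally of every base that satisfies the positional rule. Top peaks were the 8522 strongest per replicate, and overlap meant 1 bp. Differences over 3 replicates were tested by exact sign flips, two-sided; the motif family held 16 strings, with Benjamini-Hochberg adjustment. The placement code was checked at random positions on chromosome 4 against a direct search of the gene models. The motif and overlap code was checked on constructed cases with known answers.

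Genes were named by rule: the 20 strongest and 5 weakest regions, up to 10 hosts with at least 4 regions, the 3 summits nearest each distance limit on each side, the 3 strongest hosts of each of 19 gene lists, and carriers of TATCGATA or GGTCACACT. Of these carriers, 1 is not reported here. EGFR, Dpp and pioneer factor hosts beyond the first 3 of each list, and hosts with no replicate support, were named after their values were seen. The regions and lists were chosen with earlier results of these data known. Alternatives changed the distance limits, gene models, window, overlap, signal limit and replicates.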

Additional observations from a re-analysis of the deposited data

How the results depend on the processing

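The first intron share (difference 15.6 to 18.9 percentage points), the A+T excess (-1.26 to -0.511) and the share with TATCGATA (-5.40 to -2.30, all other peaks as reference) kept their direction under every alternative run. Keeping the stronger 50% of peaks left 564 regions in 500 host genes. Requiring both other replicates left 794 to 891 regions in 645 to 716 host genes.

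The difference in replicate support against the other IDR peaks, -0.448 percentage points, has no stable sign. It was 0.966 with the stronger 50% of peaks, 2.63 with reciprocal overlap of 50%, 0.0455 with all peaks of each replicate list, and between -2.11 and 1.67 with a replicate left out, turning positive without replicate 1. The median signal percentile difference of 0.185 was -0.138 at 400 to 2500 bp and between -0.0811 and 0.610 with a replicate left out, turning negative without replicate 2. The causes were not tested.

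Among the other strings, compared with all other peaks, CAGGTAG turned to 0.0235 and CACGTG to 0.0521 percentage points with start sites of protein-coding genes only. CACGTG was 0.170 at 400 to 2500 bp, AACNGGTT was -0.425 with the stronger 50% of peaks, and GAGAG was -0.0712 with interval middles. With a replicate left out, AAAAAAAA ran from -0.245 (without replicate 1) to 0.758, GAGAG from -0.594 (without replicate 2) to 0.744, CAGGTAG from -0.0764 to 0.0311 (without replicate 2), and CACGTG from -0.0780 to 0.0551 (without replicate 3).

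No paired analysis was possible because the study has 1 group of samples, with no second group to pair by replicate number, and the tests above already take the difference between peak classes within each replicate. Read depth is not known, and 3 replicates cannot give a p below 0.25. The shared control, the mixed ages and the mixed cell types of whole embryos limit every value.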

Other observations

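Short words were counted in the summit windows after their values were seen, so these are descriptions without a test. TTTAAAAA was in 89 regions (8.14%), against 7.28% of the other IDR peaks and 2.42% of the regions' own flanks. GTTAAA was in 5.94% of the regions in the weakest of the 5 signal groups and in 20.3% of those in the strongest. The other peaks had 9.49% in the weakest and 14.1% in the strongest group. A+T content was higher in the strongest group than in the weakest for both, 72.1% in the regions and 72.3% in the other peaks.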
